A study of Mus musculus with 7 samples.

Results

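Marker genes of pyramidal neurons were followed through the RNA of 7 single inhibitory neurons of the mouse hippocampus. The 9 genes are Slc17a7, Camk2a, Nrgn, Neurod2, Neurod6, Wfs1, Itpka, Pou3f1 and Tbr1. They were chosen by name, out of 21414 genes named in all 7 tables, and the transcripts listed under each name were added up. Each library was made from 1 neuron of the stratum oriens/alveus of CA1, aspirated after patch recording in acute slices from VIP-eGFP mice (MMRRC strain 31009). In this strain enhanced green fluorescent protein reports the Vip gene, which marks a class of interneurons. Cells entered the study when their axon had been traced from CA1 to the subiculum. The labels give 1 group, no experimental treatment, no age and no animal for any cell. The 7 cells therefore count as 1 sample, and no p-value was made from them. The cells are called cell 1 to cell 7, as numbered in the labels.

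Pyramidal neurons are the excitatory principal cells of CA1 and release glutamate, whereas VIP interneurons release GABA. Slc17a7 encodes the transporter that loads glutamate into synaptic vesicles of cortical and hippocampal pyramidal cells. Camk2a and Nrgn encode proteins of dendritic spines that meet at calmodulin: neurogranin holds it at low calcium, and the alpha subunit of CaMKII is activated by it. Itpka encodes a kinase of inositol trisphosphate in spines, and Wfs1 a protein of the endoplasmic reticulum that is abundant in CA1 pyramidal cells. Neurod2, Neurod6, Pou3f1 and Tbr1 encode transcription factors of excitatory neurons. The question addressed here was which of these transcripts the libraries of inhibitory cells held, and at what level.

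NEUROD2 and NEUROD6 are basic helix-loop-helix factors, a class that binds the motif CANNTG. The windows around the annotated starts of Slc17a7 and of both factor genes are shown because Slc17a7 defines the glutamatergic transmitter type and the others are the factors of this class among the 9 genes. Each runs from 250 bases before to 50 bases after the start, on the gene's own strand, from RefSeq on GRCm38.p6. Capitals mark CANNTG, which reads the same on either strand.
Slc17a7 (chr7:45163671-45163970, plus strand): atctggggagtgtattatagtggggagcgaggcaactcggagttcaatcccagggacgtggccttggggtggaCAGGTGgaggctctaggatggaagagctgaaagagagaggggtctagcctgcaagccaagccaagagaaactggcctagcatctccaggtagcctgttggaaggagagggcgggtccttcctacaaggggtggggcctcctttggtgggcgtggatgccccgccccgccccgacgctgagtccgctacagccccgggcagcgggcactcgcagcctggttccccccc
Neurod2 (chr11:98329596-98329895, minus strand): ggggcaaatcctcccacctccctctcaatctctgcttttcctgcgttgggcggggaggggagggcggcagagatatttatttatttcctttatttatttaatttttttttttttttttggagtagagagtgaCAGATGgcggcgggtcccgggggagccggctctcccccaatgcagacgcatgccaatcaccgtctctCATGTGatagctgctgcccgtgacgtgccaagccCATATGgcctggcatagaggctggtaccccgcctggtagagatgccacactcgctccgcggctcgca
Neurod6 (chr6:55681214-55681513, minus strand): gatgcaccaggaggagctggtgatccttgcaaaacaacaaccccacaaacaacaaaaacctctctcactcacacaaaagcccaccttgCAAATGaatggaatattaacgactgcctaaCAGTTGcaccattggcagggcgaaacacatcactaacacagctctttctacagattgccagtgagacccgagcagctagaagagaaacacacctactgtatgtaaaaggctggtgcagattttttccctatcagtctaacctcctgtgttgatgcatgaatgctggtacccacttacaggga
The Slc17a7 window held 1 such match, CAGGTG, whose first base lay at -177 from the start. The Neurod2 window held 3, among them CAGATG at -118, the form that NeuroD factors are known to prefer. The Neurod6 window held 2, CAAATG at -162 and CAGTTG at -132. A window was available for 7 of the 9 genes, all but Camk2a and Pou3f1. CANNTG was found in 6 of the 7, with no match in that of Itpka, and CAGATG on either strand in those of Nrgn, Wfs1 and Neurod2. Among all 32851 windows of the same length, 72.3% held CANNTG and 17.2% held CAGATG, which is itself a case of CANNTG.

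Libraries held 1052327 to 3398521 estimated counts, and genes with a messenger RNA accession in all tables (20748 genes) took 13.1% to 72.6% of TPM. TPM, transcripts per 1000000, is a level per transcript length. The table of cell 7 lists Ensembl transcripts and the others RefSeq transcripts, so TPM was normalised separately and levels set across cells carry that limit. Values rescaled to sum to 1000000 over the 20748 shared genes are called rescaled TPM. A gene was called detected above 1 TPM. Of the defining markers of the labelled cell type, Vip and Gad1 were detected in 7 of 7 cells. Slc32a1, the vesicular GABA transporter gene, was listed at 0 in cells 6 and 7, and Gad2 was at 0.218 TPM in cell 7.

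Pyramidal marker transcripts were present in every library, but the set differed from cell to cell. Of the 9 genes, 2 were detected in all 7 cells (Camk2a and Nrgn), against 2.96% of the 20748 shared genes. Another 6 were detected in 1 to 4 cells, and Tbr1 in none, as were 44.8% of the shared genes. Taken as gene and cell pairs, 28 of 63 were above 1 TPM (44.4%), where the shared genes gave 23.5%. For the 9 genes of the GABAergic core list named in all tables the figure was 69.8%.

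**Figure D1:**
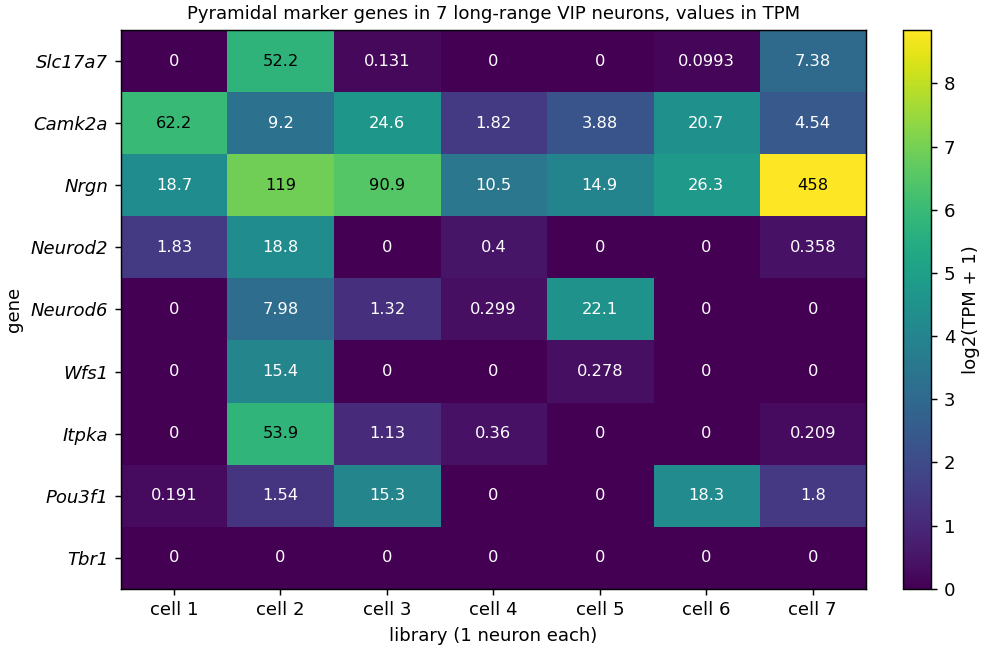
Level of the 9 pyramidal marker genes (rows) in the 7 libraries (columns), coloured by log2(TPM + 1) with TPM printed in each square. Nrgn and Camk2a are above 1 TPM in every column, Tbr1 is at 0 throughout, and cell 2 has 8 of the 9 genes above 1 TPM.

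Cell 2 held 8 of the 9 genes above 1 TPM, beside 38.8% of all shared genes in that library. Cell 3 held 5 (background 24.9%) and cell 7 held 4 (background 14.7%). Cells 1, 5 and 6 held 3 each, against backgrounds of 14.9%, 32.7% and 17.4%, and cell 4 held 2 against 21.3%. In cells 4 and 5 the share of the 9 genes (22.2% and 33.3%) was thus near that of any shared gene. In cells 1, 2, 3, 6 and 7 it was 33.3%, 88.9%, 55.6%, 33.3% and 44.4%, above the background of each. Cell 2 was the deepest library. With every library scaled to the depth of the shallowest and at least 3 counts required, 28 pairs were again counted as detected. The share of all shared genes was not counted at that setting, so the backgrounds above hold for 1 TPM only.

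**Figure D2:**
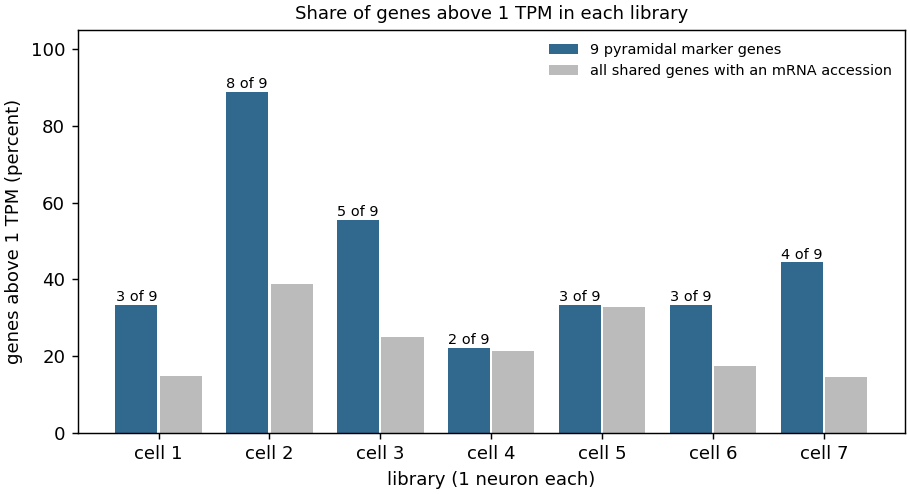
Percent of genes above 1 TPM in each library, for the 9 pyramidal marker genes (blue bars, with their number) and for the 20748 shared genes (grey bars). The blue bar is near the grey one in cells 4 and 5 and stands highest in cell 2, at 88.9% against 38.8%.

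Slc17a7 (chromosome 7, 45163949 to 45176142, plus strand, on mm10) was detected in 2 of the 7 cells. It was at 52.2 TPM in cell 2, from 339 estimated counts, with a 95% exact Poisson interval of 46.8 to 58.1 TPM. In cell 7 it was at 7.38 TPM, from 61 counts, with an interval of 5.64 to 9.48 TPM. Both intervals cover counting error only, since PCR copies are not independent molecules, and they do not overlap. Cells 3 and 6 held 1 count each (0.131 and 0.0993 TPM). Cells 1, 4 and 5 held none, where 3 counts would have given 0.573, 0.625 and 0.412 TPM. The glutamate transporter transcript was therefore well above the counting floor in cells 2 and 7, and at or below it in the other 5. In cell 2 it stood beside GABAergic transcripts, with Gad1 at 403 TPM, Gad2 at 162 TPM and Slc32a1 at 14.8 TPM. In cell 7, the Slc17a7 level lay above those of Gad2 and Slc32a1 (0.218 and 0 TPM), while Gad1 was at 136 TPM. Some general neuronal genes were low in cell 7 as well. There 4 of 9 GABAergic core genes and 8 of 10 general neuronal genes exceeded 1 TPM, beside 14.7% of the shared genes. Of the general neuronal genes, Tubb3 was at 0 and Syp at 0.258 TPM in cell 7, whereas Snap25 (844 TPM) and Map2 (536 TPM) had their highest TPM there.

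The other vesicular glutamate transporter genes gave a different picture. Slc17a6, which encodes the form typical of subcortical excitatory neurons, was at 67.2 TPM in cell 1, from 413 counts. Cells 4 and 6 held 4 and 6 counts of it (0.710 and 0.507 TPM), and the other 4 cells none. Slc17a8, the third transporter gene, was above 1 TPM in no cell. Cell 1, with nearly all of the Slc17a6 counts, had no Slc17a7 count, and on the rescaled scale its Slc17a6 level, 184, lay above the highest Slc17a7 level, 89.1 in cell 2.

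Nrgn (chromosome 9, 37544492 to 37552904, minus strand) was the member with the highest TPM in 5 of the 7 cells. From cell 1 to cell 7, its levels were 18.7, 119, 90.9, 10.5, 14.9, 26.3 and 458 TPM. Cell 7 was the highest, from 1752 counts, and cell 4 the lowest, from 20 counts with an interval of 6.40 to 16.2 TPM. The intervals of cells 1, 4 and 5 overlapped one another, and that of cell 6 (21.5 to 31.8) overlapped that of cell 1 (13.3 to 25.6), so on TPM these neighbours in the order did not differ beyond counting error. The order depended on the scale. Rescaled over the shared genes, cells 1 to 7 had 51.3, 203, 352, 32.3, 44.2, 200.3 and 631, which puts cell 3 above cell 2 and parts cell 6 from cell 1. Cell 7 was highest and cell 4 lowest on both scales. Within a cell, 81.3% to 98.0% of the shared genes lay below it, undetected genes included. Among the genes detected in the same cell, 85.3%, 90.2%, 74.9% and 86.0% lay below it in cells 2, 3, 6 and 7. In cells 1, 4 and 5 the share was 49.6%, 37.6% and 42.7%, so there neurogranin messenger RNA was below the median detected gene. It had a mean log2(TPM + 1) of 5.55 ± 1.93 (SD between 7 cells).

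Camk2a (chromosome 18, 60925618 to 60988152, plus strand) was also detected in each cell, but in another order. From cell 1 to cell 7, its levels were 62.2, 9.20, 24.6, 1.82, 3.88, 20.7 and 4.54 TPM. Cells 1, 3 and 6 were high and cells 4, 5 and 7 low. The interval of cell 5 (2.89 to 5.19) overlapped those of cells 4 (1.04 to 3.06) and 7 (3.51 to 5.73). Those of cells 3 (21.4 to 28.2) and 6 (18.4 to 23.2) overlapped as well. On rescaled values cells 5 and 7 lay further apart, at 11.5 and 6.26, as did cells 3 and 6, at 95.2 and 158. Cell 4 was at 5.59 on that scale. The mean log2(TPM + 1) was 3.53 ± 1.58 (SD between 7 cells). Cell 4 was the lowest for both Camk2a and Nrgn on the TPM scale, though for each gene its interval overlapped that of cell 5.

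Nrgn and Camk2a did not keep one ratio. Nrgn TPM divided by Camk2a TPM was, from cell 1 to cell 7, 0.301, 13.0, 3.69, 5.77, 3.83, 1.27 and 101. Cell 1 was the only one of the 7 with more Camk2a than Nrgn per length, and the ratio of cell 7 was 335 times that of cell 1. On the log2(TPM + 1) scale the difference averaged 2.02 ± 2.52 (SD between 7 cells), so its mean was smaller than the spread. The 2 values come from the same library in each case, which removes depth and the scale of the table from the ratio. The transcript entries listed for each gene still enter it, and those of cell 7 differ from those of the other cells.

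Camk2a was compared with the other subunit genes of CaMKII, because the enzyme is built from alpha, beta, gamma and delta subunits. Camk2b, the beta subunit gene, was detected throughout. Its level was 1.17 TPM in cell 3, and elsewhere lay between 17.0 and 46.4 TPM. Camk2a made up 88.4% of the summed TPM of the 4 genes in cell 3, 62.8% in cell 1 and 54.9% in cell 6. Its shares in cells 7, 5 and 2 were 15.7%, 11.8% and 8.13%. In cell 4 it was 3.77%, and Camk2b made up 96.2%. In forebrain pyramidal neurons the alpha subunit is known to be the most abundant one. Here it led the family in 3 cells and Camk2b in another 3. In cell 2 Camk2d led, at 65.3 TPM, and Camk2g was at 15.6 TPM.

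**Figure D3:**
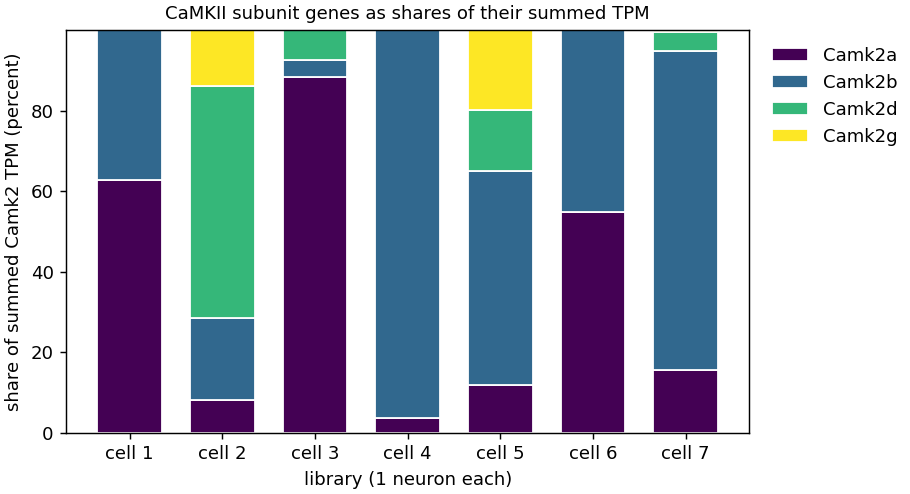
Share of each CaMKII subunit gene in the summed TPM of Camk2a, Camk2b, Camk2d and Camk2g, for each library (stacked bars that sum to 100%). Camk2a is the largest block in cells 1, 3 and 6, Camk2d in cell 2 and Camk2b in cells 4, 5 and 7.

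The transcripts that carried the Camk2a counts differed as well. Cells 1 to 6 share the listed RefSeq entries, 5 for this gene, and can be set side by side. In cells 4 and 5 the counts lay entirely on NM_177407.4, of 4966 bases. In cells 1 and 3 that entry held 73.6% and 76.6%, and the rest lay on XM_017317805.1, a predicted transcript of 1639 bases. In cell 6 no count was placed on either. There, NM_001286809.1, of 4245 bases, held 78.4% and NM_009792.3, of 4268 bases, held 21.6%. Cell 2 was split between NM_001286809.1 (56.2%) and NM_177407.4 (43.6%). Because the predicted entry is short, its part of TPM was larger than its part of counts. It gave 33.4 of 62.2 TPM in cell 1 and 12.2 of 24.6 TPM in cell 3. These are estimates of the authors' quantification from reads that several entries share.

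**Figure D4:**
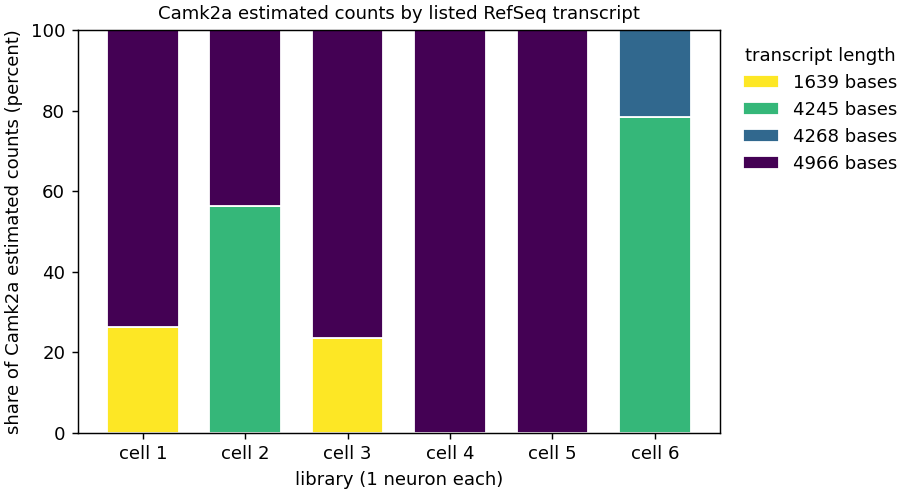
Share of the Camk2a estimated counts on each listed RefSeq transcript, named by its length in bases, in cells 1 to 6 (stacked bars). The entry of 4966 bases holds all counts in cells 4 and 5 and none in cell 6, and the entry of 1639 bases appears in cells 1 and 3.

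Itpka and Wfs1 were high in cell 2 and nearly absent elsewhere. Itpka (chromosome 2, 119742337 to 119751263, plus strand) was at 53.9 TPM in cell 2, from 202 counts, and at 1.13 TPM in cell 3, from 5 counts. Cells 4 and 7 held 1 count each, and cells 1, 5 and 6 none. Wfs1 (chromosome 5, 36966104 to 36989205, minus strand) was at 15.4 TPM in cell 2, from 119 counts, and at 0.278 TPM in cell 5. It was at 0 in the other 5 cells, where 3 counts would have given 0.250 to 0.524 TPM. For both genes, 1 library thus held nearly all of the counts.

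Neurod2 and Neurod6, close relatives by sequence, were highest in different cells. Neurod2 (chromosome 11, 98325415 to 98329648, minus strand) reached 18.8 TPM in cell 2, from 128 counts. Cell 1 had 1.83 TPM, from 10 counts. Cells 4 and 7 held 2 and 3 counts (0.400 and 0.358 TPM), and cells 3, 5 and 6 none. Neurod6 (chromosome 6, 55677822 to 55681263, minus strand) was highest in cell 5, at 22.1 TPM from 113 counts. There it was the highest of the 9 genes, above Nrgn, although Slc17a7, Neurod2 and Itpka were at 0. Cells 2, 3 and 4 had 7.98, 1.32 and 0.299 TPM, and cells 1, 6 and 7 none. Cells 2 and 4 were the only 2 of the 7 with counts for both genes, and in cell 4 these were 2 and 1. The further family genes Neurod1 and Neurod4 were listed at 0 in 7 of 7 cells.

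Pou3f1 (chromosome 4, 124656807 to 124660655, plus strand) encodes a POU-domain factor and was detected in 4 cells. Cells 6 and 3 were highest, with 18.3 and 15.3 TPM from 184 and 117 counts and overlapping intervals of 15.7 to 21.1 and 12.6 to 18.3 TPM. The overlap holds on TPM alone, since the rescaled values were 139 and 59.2. Cells 7 and 2 held 17 and 10 counts (1.80 and 1.54 TPM), cell 1 held 1, and cells 4 and 5 held none. The high cells were therefore not those of Slc17a7, and cells 3 and 6 held 1 Slc17a7 count each. The antisense gene Gm2164 overlaps the start of Pou3f1, and SMART-Seq v4 libraries do not mark strand, so reads of the pair cannot be told apart there. Of its relatives, Pou3f2 reached 1.74 TPM in cell 4 and Pou3f4 2.76 TPM in cell 5, and Pou3f3 was above 1 TPM in no cell.

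Tbr1 (chromosome 2, 61802930 to 61814114, plus strand), a T-box factor gene of deep-layer and early excitatory neurons, was listed at 0 in 7 of 7 cells, as were 36.2% of the shared genes. At the listed lengths, 3 counts, the floor used here, would have given 0.161 to 0.338 TPM, and lower levels were not distinguished from 0. Its relatives Eomes and Tbx21 were above 1 TPM in no cell. A list of 7 transcription factor genes of excitatory neurons or their precursors was also followed, with Eomes and Neurod1 counted in it again. Of the 7, 6 never exceeded 1 TPM, beside 44.8% of the shared genes. Among the 6, 5 were at 0 throughout, beside 36.2% of the shared genes. They include Emx1, Fezf2, Bhlhe22 and Neurog2. Cux2, which interneurons are also known to express, was the exception, above 1 TPM in 5 cells and highest in cells 2 and 7 (24.9 and 15.0 TPM).

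Across the 7 cells, Slc17a7, Neurod2, Wfs1 and Itpka shared their highest cell, cell 2, on both the TPM and the rescaled scale. Cell 1 was highest for Camk2a, cell 5 for Neurod6, cell 6 for Pou3f1 and cell 7 for Nrgn, also on both scales. Camk2a and Nrgn together made up 97.6% of the summed TPM of the 9 genes in cell 1, 97.9% in cell 7 and 92.1% in cell 4. They made up 46.1% in cell 2 and 45.5% in cell 5, where Neurod6 took most of the rest. Without these 2 genes, the mean log2(TPM + 1) of the other 7 was 3.48 in cell 2 and 0.187 to 0.930 in the other cells. The sum over the 9 genes was highest in cells 7 and 2 (472 and 278 TPM) and lowest in cell 4 (13.4 TPM). On rescaled values cell 7 was again highest (651) and cell 4 lowest (41.1), but cells 3 and 6 (516 and 498) lay above cell 2 (474).

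Most of the calmodulin pathway around Nrgn and Camk2a was detected. Of 19 genes of this pathway, 9 were detected in every cell and 15 in at least 4, beside a background of 19.0% of the shared genes for the latter. The 3 calmodulin genes summed to 506 TPM in cell 6 and 4592 TPM in cell 7. Relative to Nrgn, that sum was 11.5, 11.0 and 10.02 times as high in cells 2, 3 and 7, and 119 times as high in cell 4. Ppp3r1, a regulatory subunit of the phosphatase calcineurin, had its lowest level, 4.96 TPM, in cell 7, against 52.9 to 160 TPM in the others. Camk1, another calmodulin-dependent kinase gene, was not counted in cell 7 and lay between 11.1 and 214 TPM elsewhere. Pcp4, whose protein shares the calmodulin-binding motif of neurogranin, was the highest pathway gene after the calmodulins, with 21.7 TPM in cell 2 and between 242 and 1713 TPM in the other cells. It was above Nrgn in 6 of the 7 cells, with cell 2 the exception. Gap43, a further gene of that protein group, was detected in each cell, with 4.17 TPM the lowest (cell 3) and 216 TPM the highest (cell 5).

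Of 6 genes of inositol trisphosphate handling around Itpka, 4 were above 1 TPM in no cell, beside 44.8% of the shared genes, among them the other kinase genes Itpkb and Itpkc. Itpr1, the main receptor gene of the brain, reached 18.1 TPM in cell 2, and 4.98 TPM in cell 4. Inpp5a, a phosphatase gene, was found in cells 2 and 5 alone (39.2 and 8.34 TPM). Cell 2, the cell with Itpka, was the highest for both.

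Several messages known to be carried into dendrites were found beside Camk2a and Nrgn. Of 8 such genes, Shank1, Dlgap3 and Map2 were detected in every cell, beside 2.96% of the shared genes, and 75.0% of the list's gene and cell pairs were above 1 TPM, beside 23.5%. Ddn, which encodes dendrin of pyramidal cell dendrites, had levels, from cell 1 to cell 7, of 173, 0.859, 28.4, 32.2, 3.61, 0.712 and 145 TPM. Cells 1 and 7 were thus high for Ddn, as they were for Camk2a and Nrgn respectively, while cell 2, high for Slc17a7, held 7 Ddn counts. Psd, a scaffold-associated exchange factor gene, lay between 63.9 and 86.2 TPM in cells 2, 3, 5 and 7 and did not exceed 5.95 TPM in the others. Camk2n1, the CaMKII inhibitor gene, was highest in cell 1, had 14.7 to 24.3 TPM from cell 3 to cell 6, and was at 0.254 TPM in cell 2, with no count in cell 7.

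The 9 pyramidal marker genes lay below the GABAergic core list in 6 of 7 cells. The mean log2(TPM + 1) of the pyramidal genes was 1.34, 3.85, 1.97, 0.702, 1.24, 1.51 and 1.84 from cell 1 to cell 7. That of the GABAergic genes was 2.62, 5.38, 3.96, 4.25, 4.28, 2.81 and 1.37. The difference, pyramidal minus GABAergic, was -3.55 in cell 4, the lowest, and 0.48 in cell 7, the highest, with a mean of -1.74 ± 1.32 (SD between 7 cells). Cell 7 was the single cell with the pyramidal genes above, also with other pseudocounts, rescaled values, counts per library total, the highest transcript of each gene, or without Tbr1. In cell 7 this rested on Nrgn and Camk2a, without which the level of the other 7 genes was 0.752, below the 1.37 of the GABAergic list. Cell 2 was the highest for both lists. In a check of whether 1 cell lay apart from the rest, 3 of the 8 single genes with counts were picked out (Neurod2, Wfs1 and Itpka, in cell 2), beside 38.4% of the shared genes above 0 TPM in at least 1 cell.

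**Figure D5:**
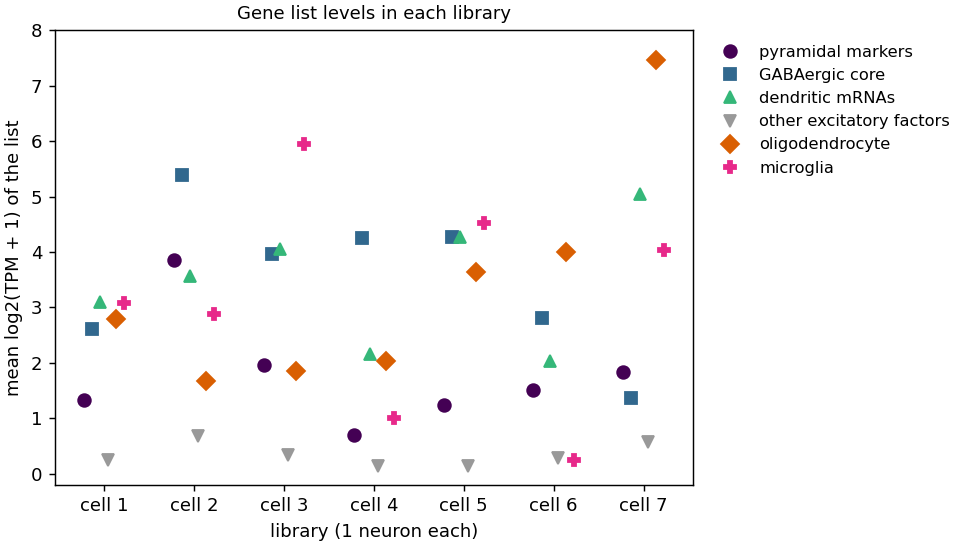
Mean log2(TPM + 1) of 6 gene lists (symbols) in each of the 7 libraries. The pyramidal markers (circles) lie below the GABAergic core genes (squares) in cells 1 to 6 and above them in cell 7, where the oligodendrocyte genes (diamonds) reach 7.46.

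Markers of further cell types of the slice were present beside the pyramidal genes. Gene and cell pairs above 1 TPM were 51.8% for oligodendrocyte genes, 48.2% each for microglial and astrocyte genes and 14.3% for vascular genes, beside 23.5% for the shared genes. Of 8 oligodendrocyte genes, 3 to 6 were above 1 TPM per cell, and their sum was lowest in cell 3 (113 TPM) and highest in cell 7 (20793 TPM), the cell with the highest Nrgn. Olig1 exceeded 1 TPM in cells 3 and 6 only (42.9 and 119 TPM), the cells with the highest Pou3f1. Olig2 did so in cell 6 only (90.6 TPM), whereas Mbp had its lowest level in cell 3 (62.2 TPM). Of 8 microglial genes, 0 to 7 were above 1 TPM, with the lowest sum in cell 6 (1.55 TPM) and the highest in cell 7 (1702 TPM). Of 8 astrocyte genes, 2 to 6 were above 1 TPM, with sums of 29.8 to 2753 TPM. Aldoc and S100b were above 1 TPM in 7 of 7 cells, and Gja1 was at 618 TPM in cell 1. Gfap was at 0 in 7 of 7 cells, and Aqp4 exceeded 1 TPM in none. The 4 haemoglobin genes summed to 104 TPM in cell 1 and 10493 TPM in cell 2, the cell with the highest Slc17a7, Itpka, Wfs1 and Neurod2. Of 6 vascular genes, 0 to 2 were above 1 TPM, and their sum was 0 in cells 2, 5 and 6. The part of RNA from neighbouring cells in the pyramidal marker values was not tested.

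Genes with the most similar pattern over the 7 cells were sought for the 3 members detected in at least 4 cells, by Pearson correlation of log2(rescaled TPM + 1). For Camk2a the closest of 8953 genes were Scrg1 (0.988), Basp1 (0.954), Lats2 (0.954), Gm14288 (0.950) and Vat1l (0.950). For Nrgn they were Ccdc43 (0.987), Gcsh (0.977), Lrrc24 (0.967), Brap (0.963) and Sar1b (0.949). For Pou3f1 they were Prps1 (0.974), Asf1a (0.971), Nipal3 (0.968), 1700025G04Rik (0.967) and Hist1h4c (0.965). None of the 15 was a member of the pyramidal lists. With 7 points and 8953 genes, correlations this high describe these cells alone, and each cell's depth and table are shared by all its genes. Between members, the highest value was that of Wfs1 and Itpka (0.892), with cell 2 highest for both, and Camk2a against Nrgn gave 0.079.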

How the data were processed

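Per the file headers, the authors' tables give estimated counts and TPM for each transcript of each cell, with its length. STAR 2.5.2a, kallisto and the mm10 build are named in the submitters' processing notes. What each tool did, and on which annotation, the sources used here do not give. Per the labels' protocols, complementary DNA was made with SMART-Seq v4 and 17 PCR cycles, and libraries with Nextera XT.

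From these, TPM and estimated counts were summed per gene symbol (Python 3.11.15, pandas 2.3.3). Symbols turned into dates or missing were looked up by accession, with 122 of 157 repaired per RefSeq table and 81 of 1210 in the Ensembl table. None of these (0) was a transcript of the 9 genes. Shared genes are those named in all tables with a messenger RNA accession in cells 1 to 6, and not mitochondrially encoded. Log values are log2(TPM + 1), which understates differences between low values. Intervals are exact Poisson at 95% on the rounded count, and the floor is 3 counts. No pair of cells was a copy of another (Spearman correlation over 8954 genes of 0.159 to 0.337). The steps over many genes were tested on simulated data. Gene positions are from GENCODE M21 and promoter windows from RefSeq.

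The 9 genes, the gene lists and the rule for named genes (all 9, up to 6 valued members per list, 5 similar genes per member) were chosen with earlier results of these data known. In a few sentences more list members are given values, chosen after they were seen. Alternatives were other thresholds, pseudocounts, scales and transcript summaries, and leaving out each cell. A gene of the transcription factor list is not reported here.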

Additional observations from a re-analysis of the deposited data

Results flagged for a closer look

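Each of 11 values was checked for a single cell that lay apart from its nearest neighbour by a large part of the spread from lowest to highest (Dixon's 95% critical value), on log2(TPM + 1). The check picked out 4, each with cell 2 on top: Neurod2 (18.8 TPM), Wfs1 (15.4 TPM), Itpka (53.9 TPM) and the mean level of the 9 pyramidal marker genes (3.85 on the log2 scale). Chance flags about 1 in 20 groups of normally distributed values, and log values with many zeros are not of that kind. Of single genes, among the 13232 shared genes above 0 TPM in at least 1 cell, 38.4% were picked out in the same way. That share is no reference for the mean level of the list, for which no reference share was made. On the rescaled values, 2 of the 4 were picked out again, Wfs1 and Itpka, and Neurod2 and the list level were not. Slc17a7, also highest in cell 2, was not picked out, since cell 7 lay between cell 2 and the rest.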

How the results depend on the processing

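Above 10 TPM in place of 1 TPM, 17 gene and cell pairs were counted in place of 28, and 1 gene (Nrgn) was detected in all 7 cells in place of 2. Above 0 TPM there were 37 pairs, and on the rescaled scale 30. The median level of the 9 genes was 1.51 with a pseudocount of 1, -0.63 with 0.1 and 3.88 with 10, as that scale itself shifts. Leaving out each cell in turn gave 20 to 26 pairs, 2 genes detected in all remaining cells, 1 to 2 detected in none (2 without cell 2, with Wfs1 added to Tbr1) and a median level of 1.43 to 1.68. It gave -2.11 to -1.44 for the pyramidal minus GABAergic difference and 1.30 to 2.64 for Nrgn minus Camk2a. The last was 0.35 with counts scaled by library total, which are not per length. No paired analysis was possible because the labels give 1 group. Counts of 1 to 5 lie near the floor, so a low value and a 0 were not distinguishable at this depth.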

Other observations

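Of 7 other genes that pyramidal cells of the hippocampus are known to express, 31 of 49 gene and cell pairs were above 1 TPM (63.3%), beside 23.5% for the shared genes. Olfm1, a secreted olfactomedin gene, was detected throughout, with 15.4 TPM the lowest (cell 4) and 485 TPM the highest (cell 2). Hpca, the hippocalcin gene, lay between 10.8 and 421 TPM in the first 6 cells and had no count in cell 7. Chn1, a Rac regulator gene, was highest in cell 7 (234 TPM) and lowest in cell 1 (0.176 TPM). Arpp21 was above 1 TPM in each cell but cell 1, with at most 9.62 TPM. Nptx1 was highest in cells 1 and 4 (26.7 and 13.2 TPM), with no count in cells 2, 5 and 7. Ptk2b exceeded 1 TPM in cells 1 and 2 (2.05 and 7.08 TPM), and Crym had 4 counts, all in cell 2.

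Genes that separate the fields of the hippocampus were counted as pairs above 1 TPM, beside 23.5% for the shared genes. CA1 genes gave 6 of 28 (21.4%) and CA2 genes 11 of 28 (39.3%), of which Pcp4 alone gave 7. CA3 genes gave 3 of 21 (14.3%) and dentate genes 1 of 28 (3.57%). Only the CA2 share exceeded that of the shared genes. Of the CA1 genes, Mpped1 had 37.9, 30.2, 70.0, 4.61 and 22.4 TPM from cell 3 to cell 7. Spink8 was at 14.1 TPM in cell 5, from 19 counts, and at 0 in the other 6. Cell 5 was thus the highest for both and also for Neurod6, while neither Fibcd1 nor Man1a exceeded 1 TPM anywhere. Of the CA2 genes, Necab2 was at 197 TPM and Rgs14 at 31.8 TPM in cell 2, Amigo2 was at 0 throughout, and Pcp4 was detected in every cell. Grik4, a CA3 gene, was highest in cells 7 and 4 (61.8 and 55.7 TPM). Of 4 dentate genes, Dsp, C1ql2 and Lct were listed at 0 in 7 of 7 cells, as were 36.2% of the shared genes. Prox1 was at 6.06 TPM in cell 2, from 55 counts, and at 0 elsewhere. Which cell type these Prox1 counts came from was not tested.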
